A study of Mus musculus with 2 samples.

Results

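The spindle, kinetochore and anaphase genes are the 91 genes of the deposited table whose symbols mark them as kinesins, centromere proteins, spindle checkpoint proteins, Aurora or Polo kinases, NDC80 complex subunits, subunits of the anaphase promoting complex, condensin, cohesin or tubulins. They were chosen out of 8249 genes by a rule on symbols that used no measured value, though earlier results of these data were known. The mouse RefSeq annotation holds 129 protein-coding symbols of this kind, of which 91 were in the table and the rest were not analysed here. RNA sequencing was done on 2 lymphomas of L-DKO mice, a strain tied by the series title to high levels of E proteins, transcription factors of lymphocyte development that bind E-box DNA. One came from a Peyer's patch, a lymphoid follicle of the gut wall, in a mouse 26 weeks old, and the other from the thymus of a mouse 30 weeks old. Both tumours were negative for the CD1d tetramer that stains invariant NKT cells, and no untreated or wild-type sample was analysed here.

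With 1 library per site there is no replicate, no SD and no test, and site, mouse and age cannot be told apart. Values are FPKM, fragments scaled by transcript length and by library size, back-calculated from a deposited scale that was read as log2(FPKM + 1). A difference is log2(FPKM + 1) in the Peyer's patch lymphoma minus that in the thymic lymphoma, and genes 2 or more apart on this scale, or 4-fold, are called apart. Where a gene has a pair of values, that of the Peyer's patch lymphoma comes first. All 91 members reached 1 FPKM in at least 1 tumour and so passed the filter on low values. RNA was taken from lysed tissue per the labels' protocols, although the series design speaks of sorted cells, so fewer dividing cells and less RNA per dividing cell cannot be told apart.

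During mitosis a spindle of microtubules, built of alpha and beta tubulin and started from rings of gamma-tubulin, attaches to each chromosome at its kinetochore. The inner kinetochore sits on nucleosomes that hold the histone variant CENP-A, and the outer kinetochore, with the NDC80 complex, grips the microtubule. Until every kinetochore is attached, the spindle checkpoint holds back CDC20, the activator of the anaphase promoting complex (APC/C), a ubiquitin ligase that marks securin and cyclin B for destruction. Condensin compacts the chromosomes, cohesin holds sister chromatids together, and kinesin motors move chromosomes and shape the spindle. In lymphoid tumours these genes are known as part of the proliferation signature.

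A feature of many mitotic promoters that the choice by symbol did not use is the hexamer TTTGAA, the cell cycle homology region, often close to the start site and paired with CCAAT boxes that bind NF-Y. The search covered both strands of RefSeq promoters of build GRCm38.p6, from 250 bases before to 50 after each start, and found promoters for 79 of the 91 members. Members are counted here as having mitotic roles unless they are interphase kinesins, alpha or beta tubulins, Cenpj, Aurkaip1 or Cenpv. This division is coarse, since those tubulins also build the spindle and the mitotic set includes Plk3, Smc5 and Smc6. TTTGAA was held by 28 of 69 promoters of members with mitotic roles (40.6%), against 17.9% of all 32851 promoters and 12.4% of the 7569 promoters of genes in the table. Among mitotic kinesins 8 of 11 promoters held it (72.7%), and among interphase kinesins 0 of 8. Within 50 bases of the start site it was present in 20 of the 69 mitotic promoters (29.0%), against 4.94% of all promoters and 3.41% of those of genes in the table. The stretches shown here carry that pattern. The first 6 are the 100 bases before the start sites of genes with the hexamer close by, and Bub1 and Tubgcp6, both at least 4-fold apart between the lymphomas, have no TTTGAA there. TTTGAA and CCAAT, on either strand, are in capitals. On GRCm38.p6 they lie at chr4:118437344-118437443 on the minus strand (Cdc20), chr19:37376282-37376381 on the plus strand (Kif11), chr7:127042421-127042520 on the minus strand (Kif22), chr5:45669825-45669924 on the plus strand (Ncapg), chr12:116405336-116405435 on the plus strand (Ncapg2), chr8:116921640-116921739 on the plus strand (Cenpn), chr2:127831860-127831959 on the minus strand (Bub1) and chr15:89123151-89123250 on the minus strand (Tubgcp6).
Cdc20: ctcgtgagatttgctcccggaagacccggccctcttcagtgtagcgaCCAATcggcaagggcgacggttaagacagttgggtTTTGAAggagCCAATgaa
Kif11: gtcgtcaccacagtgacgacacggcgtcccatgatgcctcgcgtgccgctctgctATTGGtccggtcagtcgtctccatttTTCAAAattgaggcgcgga
Kif22: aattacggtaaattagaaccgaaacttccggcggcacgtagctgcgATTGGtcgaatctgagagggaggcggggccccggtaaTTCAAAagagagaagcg
Ncapg: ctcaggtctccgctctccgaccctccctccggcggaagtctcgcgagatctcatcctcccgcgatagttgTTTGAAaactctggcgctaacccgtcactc
Ncapg2: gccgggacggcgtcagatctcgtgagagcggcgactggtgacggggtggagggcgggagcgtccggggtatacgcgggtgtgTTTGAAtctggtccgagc
Cenpn: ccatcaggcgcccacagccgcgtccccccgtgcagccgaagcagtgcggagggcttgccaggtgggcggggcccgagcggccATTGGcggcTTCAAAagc
Bub1: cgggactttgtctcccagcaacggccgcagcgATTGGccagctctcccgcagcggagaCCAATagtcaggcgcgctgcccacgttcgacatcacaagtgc
Tubgcp6: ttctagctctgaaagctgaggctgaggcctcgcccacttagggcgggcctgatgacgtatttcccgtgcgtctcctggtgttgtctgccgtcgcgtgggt

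In other genes the hexamer lay just downstream of the annotated start. The 30-base sites in Aurka (chr2:172370521-172370550, minus strand), Plk1 (chr7:122159453-122159482, plus strand) and Kif20b (chr19:34922353-34922382, plus strand) are printed the same way, and that of Kif20b holds the hexamer in 2 tandem copies.
Aurka: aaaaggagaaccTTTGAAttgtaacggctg
Plk1: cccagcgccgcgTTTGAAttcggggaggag
Kif20b: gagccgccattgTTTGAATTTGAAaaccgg

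CCAAT was held by 53.6% of the mitotic promoters, by 37.4% of all and by 52.6% of the 19 promoters of the other members, tubulins among them. The E-box forms CAGCTG or CACCTG, of the kind that E proteins bind, were in 21.7% of the mitotic promoters, 42.1% of those of the other members, 27.9% of those of genes in the table and 33.0% of all. A match is a description of letters and not a bound site, and RefSeq start sites need not be those used in these tumours. The differences between the lymphomas were also set beside the hexamer. The 27 mitotic members that held TTTGAA had a median difference of 0.53, with 1 gene past 4-fold toward the Peyer's patch lymphoma and 2 toward the thymic lymphoma, and the 34 without it had a median of 0.39, with 5 and 1. The 20 with it within 50 bases of the start had a median of 0.75, 15 of them above 0, with 1 gene and 0 genes called, and the other 41 had a median of 0.36, 24 of them above 0, with 5 and 3. These are descriptions with no test.

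**Figure D1:**
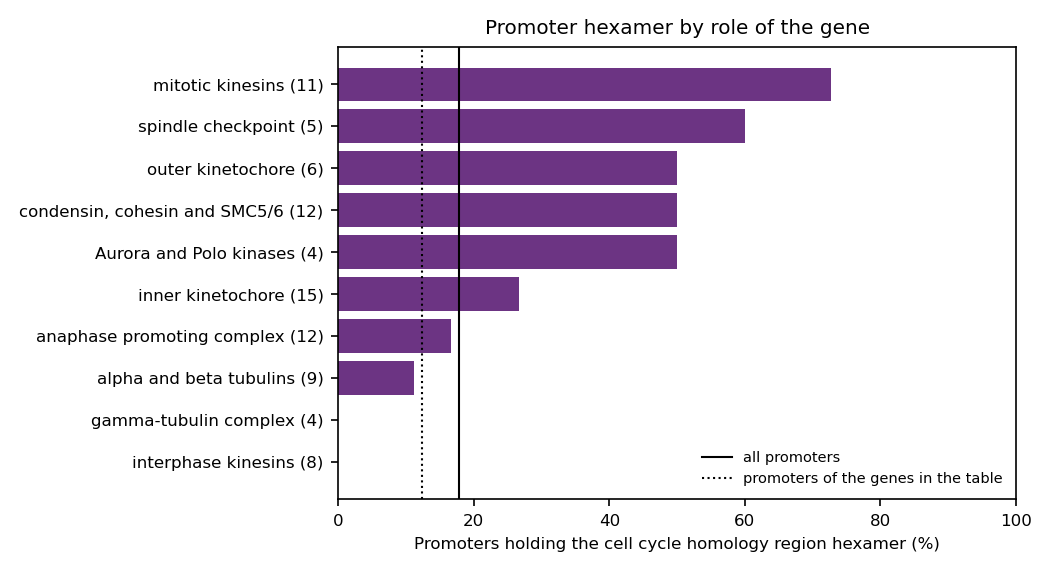
Bars give the share of promoters, in percent, that hold the cell cycle homology region hexamer on either strand, for each role of the member genes, with the number of promoters in brackets. The solid line marks all promoters (17.9%) and the dotted line those of genes in the table (12.4%), and mitotic kinesins have the longest bar (72.7%).

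Large differences were less common among the members than in the table as a whole. Of the 91 members, 10 were at least 4-fold apart (11.0%), where the share over all genes tested was 19.9%. In the direction of the Peyer's patch lymphoma 7 members were called (7.69%), against 7.84% of all genes, and in that of the thymic lymphoma 3 (3.30%), against 12.0%. The 7 were Tubgcp6, Cenpo, Cenpu, Bub1, Cenpj, Ncaph2 and Aurka, and the 3 were Anapc16, Kif18a and Kif2c. The split depended on the setting, with 7 and 1 members when libraries were brought to the same total and 15 and 1 with the authors' standard scores. Over all genes the shares toward the Peyer's patch and the thymic lymphoma were then 10.7% and 5.46% with equal totals, and 14.8% and 7.57% with the scores. For the scores, the difference of scores was multiplied by the mean of the 2 libraries' SDs (2.84 and 2.43). A value of 2 on that scale is not exactly 4-fold. The equal-totals setting added 1 after both libraries were scaled down. It therefore mixes scaling with a larger added value, which weighs most on low values. The totals also include extreme values, up to 817000 FPKM (Peyer's patch) and 1650000 FPKM (thymic) for a single gene. Within 2-fold lay 42 members (46.2%), against 49.8% of all genes. The median difference was 0.43, where that of all genes was 0.05, and 56 members were above 0. The median member stood at 27.9 FPKM (Peyer's patch) and 23.4 FPKM (thymic), below the median gene of the table (31.2 and 32.6 FPKM). Across the 91 members Pearson's r between the tumours was 0.67 and Spearman's rho 0.62, close to the 0.69 and 0.62 over all genes. The points of each correlation share 2 libraries, and genes are not independent.

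**Figure D2:**
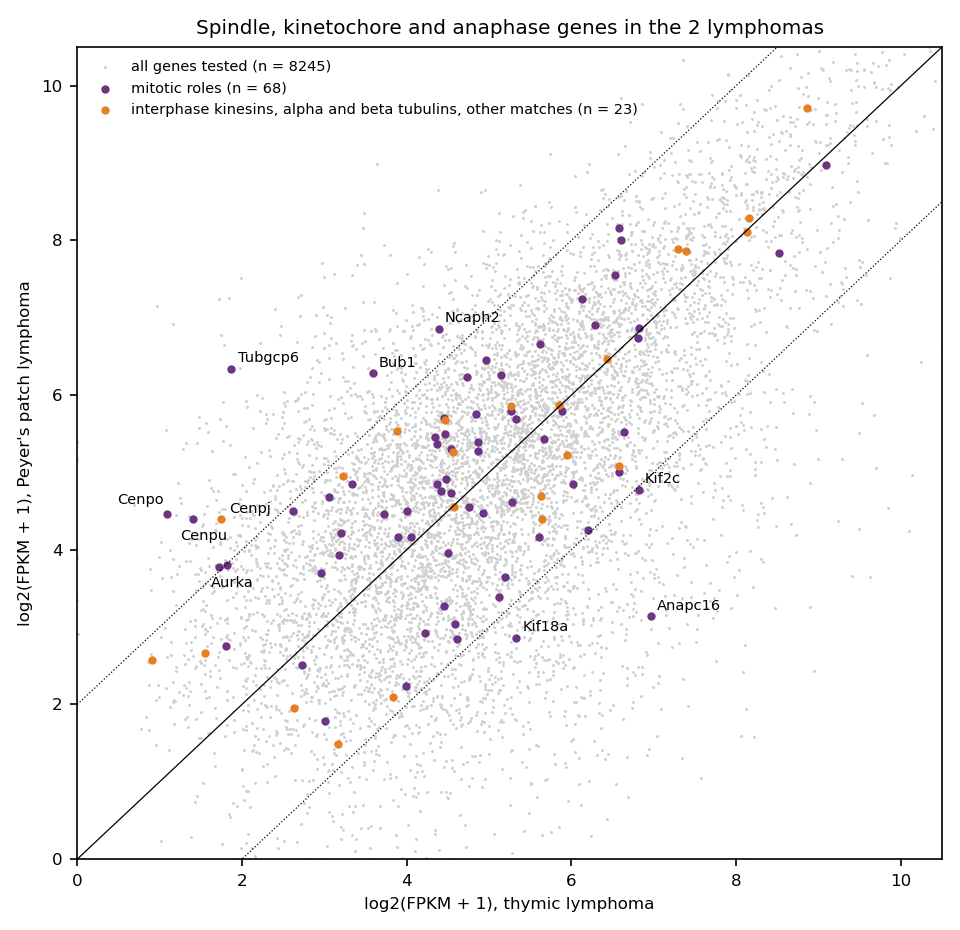
Each point is a gene, with log2(FPKM + 1) in the thymic lymphoma on the x axis and in the Peyer's patch lymphoma on the y axis. Grey points are the 8245 genes tested, without those beyond the axes, purple the 68 members with mitotic roles and orange the other 23 members, dotted lines mark 4-fold, and the 10 named members lie outside them.

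Roles differed in their medians. The spindle checkpoint genes had a median difference of 1.18, the outer kinetochore 1.01, the gamma-tubulin complex 0.68, and condensin with cohesin and SMC5/6 0.58. The inner kinetochore followed at 0.27 and the alpha and beta tubulins at 0.24. Below the median of all genes (0.05) were the APC/C at -0.08, mitotic kinesins at -0.21, interphase kinesins at -0.32 and the Aurora and Polo kinases at -0.55. Each role kept its side of the all-gene median under every scaling tried, whereas the sign of the 4 lowest medians itself turned positive under the authors' standard scores and, except for the kinases, with equal totals. With 4 to 13 genes in a role these medians are descriptions only.

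**Figure D3:**
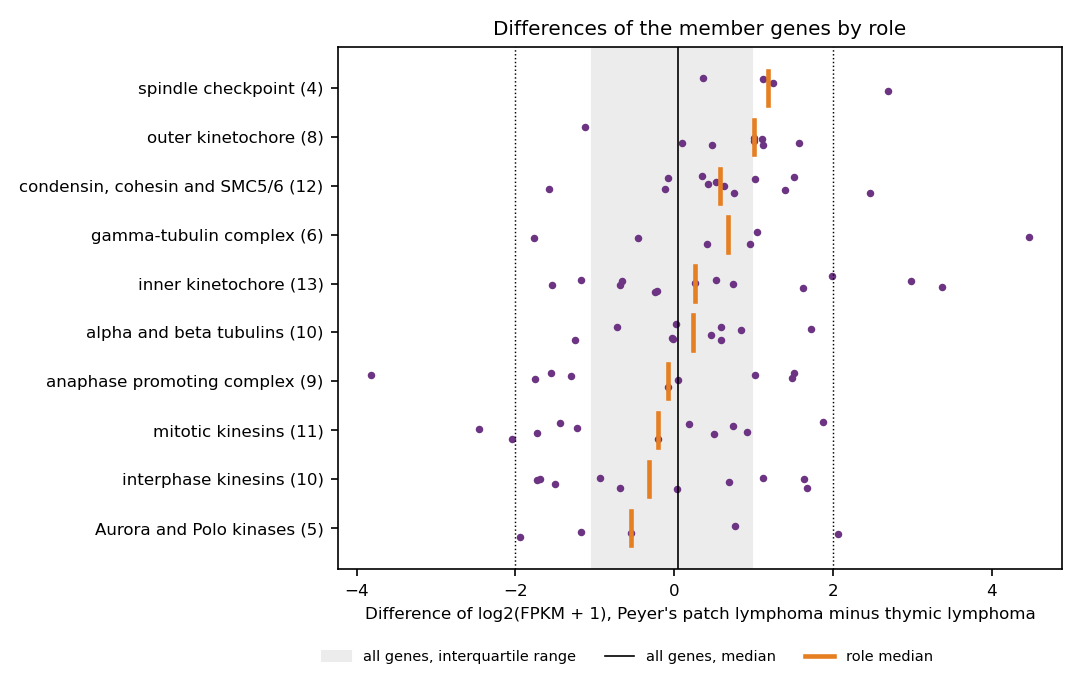
Points are members, without the 3 placed in none of these roles, at their difference of log2(FPKM + 1), Peyer's patch minus thymic lymphoma. Each role has a row with its number of genes, and orange bars are role medians, from 1.18 in the spindle checkpoint to -0.55 in the kinases. The grey band is the interquartile range of all genes, the black line their median of 0.05, and dotted lines mark 4-fold. The sign of the 4 lowest role medians depends on scaling.

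All 4 measured spindle checkpoint genes were above 0. Bub1, a kinase that marks centromeric chromatin and recruits other checkpoint proteins, stood at 76.8 FPKM (Peyer's patch) and 11.0 FPKM (thymic), a difference of 2.69 and the only one of the 4 past 4-fold. Bub1b, which encodes the checkpoint effector BUBR1, was at 51.0 and 20.9 FPKM, with a difference of 1.24. Bub3, the adaptor that carries both BUB1 and BUBR1 to kinetochores, was at 150.6 and 69.0 FPKM, a difference of 1.12. Mad2l1, which encodes MAD2, the protein that captures CDC20, was the most even at 50.5 and 39.1 FPKM. The order within each tumour therefore differed. In the Peyer's patch lymphoma Bub1 was the second highest of the 4, and in the thymic lymphoma the lowest, with Bub3 at 1.96 and 6.26 times the level of Bub1. Cdc20, the target of the checkpoint, was at 86.3 and 30.2 FPKM, a difference of 1.49 in the same direction.

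In the outer kinetochore 7 of 8 genes were above 0 and 0 were past 4-fold. Zwint, which joins the checkpoint machinery to the kinetochore scaffold, was the highest of the group in the Peyer's patch lymphoma at 284.6 FPKM, and was at 94.6 in the thymic lymphoma. Of the NDC80 complex, which works as 1 copy of each of its chains, Ndc80 was at 75.7 and 34.3 FPKM, Nuf2 at 27.9 and 19.7 and Spc25 at 42.9 and 19.3. Spc24, the partner chain of Spc25, went the other way at 44.9 and 98.8 FPKM, a difference of -1.12. Spc24 and Spc25 were thus nearly level in the Peyer's patch lymphoma, with a ratio of 1.05, and 5.11-fold apart in the thymic lymphoma. Cenpe, a kinesin that brings chromosomes to the spindle equator, was at 17.6 and 8.24 FPKM, and Zwilch, of the complex that loads checkpoint proteins, at 40.3 and 19.6. Cenpf, a large protein of the kinetochore corona, was even at 16.9 and 15.6 FPKM.

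In the inner kinetochore 7 of 13 genes were above 0, and Cenpo and Cenpu were past 4-fold. They encode subunits of a single complex, with CENP-P and CENP-Q, of which CENP-U is a docking site for the kinase PLK1. Cenpo was at 21.0 FPKM (Peyer's patch) and 1.13 FPKM (thymic), a difference of 3.37. Cenpu was at 20.0 and 1.65 FPKM, a difference of 2.99. Both thymic values are among the lowest of the table, at percentiles 0.364 and 0.995 of all genes, so their ratios of 18.7 and 12.2 are uncertain, and with 5 FPKM added in place of 1 the difference of Cenpu was 1.91. Cenpp was at 24.6 and 7.30 FPKM and Cenpq at 42.1 and 49.96, within 4-fold. The 4 subunits thus spanned 2.10-fold in the Peyer's patch lymphoma and 44.3-fold in the thymic lymphoma. Exons of other genes on the opposite strand cover 22.5% of the exon bases of Cenpo (Adcy3 and Ptrhd1) and 26.7% of those of Cenpu (Primpol) in GENCODE M21. The kit keeps strand, but whether the authors' quantification used it is not given in the sources used here.

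Other inner kinetochore genes also split within complexes. Cenpn and Cenpl encode partners that read the CENP-A nucleosome. Cenpn was at 12.9 and 2.52 FPKM, and its difference of 1.98 lay just short of the threshold, with a ratio of 5.13 without the added 1, while Cenpl was at 7.25 and 23.1 FPKM, a difference of -1.54. Cenpa itself was at 41.0 and 28.1 FPKM and Cenpc1, whose product bridges inner and outer kinetochore, at 16.9 and 13.9. Cenpm was the highest of the group in both tumours, at 228 and 366 FPKM, far above its complex partners Cenpi (8.68 and 20.9) and Cenpk (21.1 and 12.2). Cenpw, a histone-fold protein, was at 23.5 and 37.8 FPKM, and Cenpb, which binds satellite DNA, was low in both at 4.70 and 5.62.

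Mitotic kinases differed in direction. Aurka, which encodes Aurora A of the spindle poles, was at 12.8 FPKM (Peyer's patch) and 2.29 FPKM (thymic), a difference of 2.06. Aurkb, which encodes Aurora B, the kinase that corrects faulty attachments at centromeres, was at 18.2 and 72.4 FPKM, a difference of -1.94, just short of the threshold. Aurkb therefore stood at 1.42 times the level of Aurka in the Peyer's patch lymphoma and at 31.5 times in the thymic lymphoma. Plk1, the main Polo kinase of mitosis, was at 14.5 and 21.7 FPKM. Plk4, which starts centriole duplication, was at 27.8 and 63.7 FPKM, and Plk3, linked to stress responses, at 38.3 and 22.1. Of these 5 genes 2 were above 0. The call for Aurka was lost in the equal-totals setting, where its difference was 1.70 and the added 1 also weighed more on low values. With 5 FPKM added its difference was 1.28.

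Within the APC/C the catalytic genes and the platform genes stood differently. All 3 genes of the catalytic module were lower in the Peyer's patch lymphoma, and 0 were called. Anapc2, the cullin subunit, was at 6.57 and 17.7 FPKM, Anapc11, the RING subunit, at 11.6 and 35.7, and Anapc10, which helps bind substrates, at 3.70 and 14.9, with differences of -1.30, -1.55 and -1.75. Without the added 1 the ratio of Anapc10 was 4.02. The large platform subunits Anapc1 (116 and 112 FPKM) and Anapc5 (105 and 111) were even. Anapc4, of the same platform, was at 74.3 and 25.5 FPKM, and Anapc15, needed to release the checkpoint complex, at 44.0 and 21.1. Anapc16, a small accessory subunit, had the widest difference of all members toward the thymic lymphoma, at 7.83 and 123.6 FPKM, a difference of -3.82. Anapc4 stood at 11.3 times the level of Anapc2 in the Peyer's patch lymphoma and at 1.44 times in the thymic lymphoma.

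**Figure D4:**
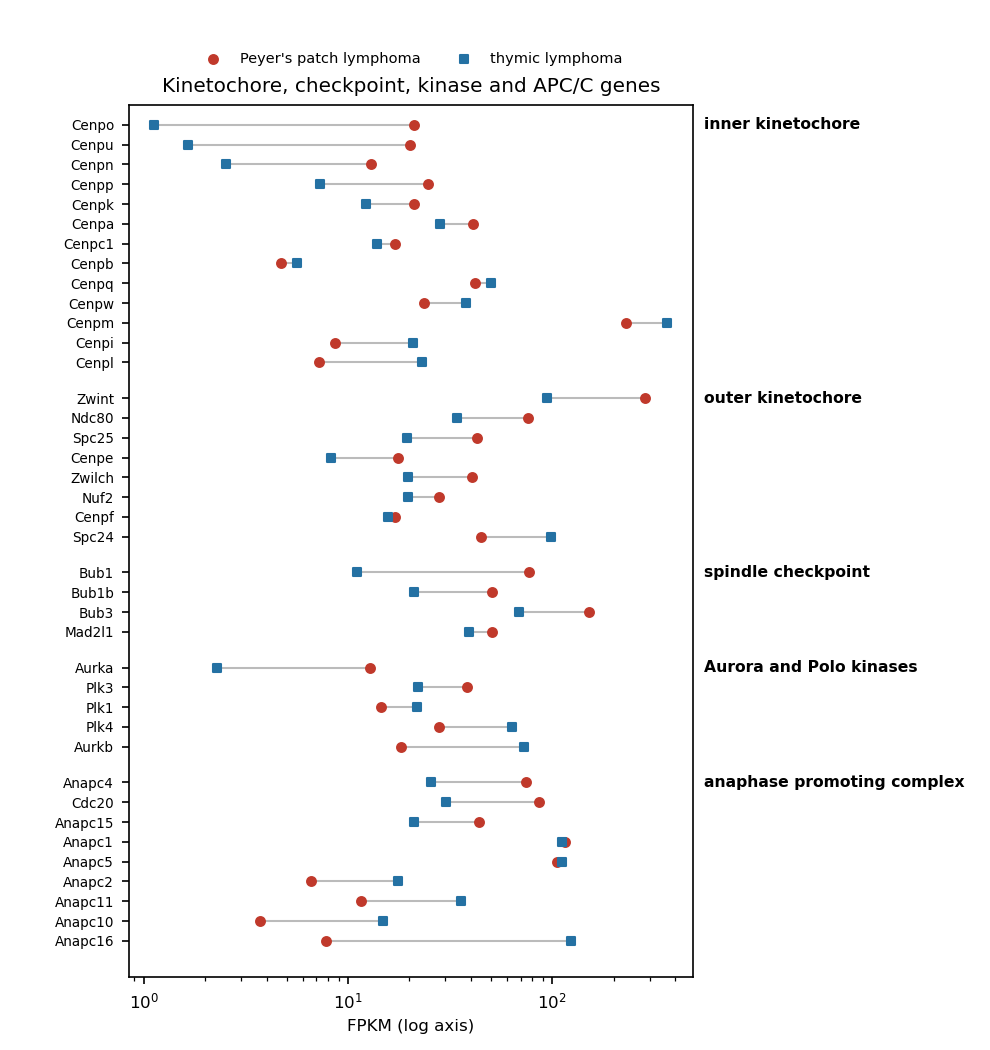
FPKM on a log axis for the 39 members of the kinetochore, checkpoint, kinase and APC/C groups, with red circles for the Peyer's patch lymphoma and blue squares for the thymic lymphoma, and a grey line joining the values of a gene. All 4 checkpoint genes have the circle on the right, from Bub1 (76.8 and 11.0) to Mad2l1 (50.5 and 39.1), while Anapc16 (7.83 and 123.6) has the longest line the other way.

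Condensin II, the form present in the nucleus throughout the cell cycle, was higher in the Peyer's patch lymphoma in all 3 of its own subunits. Ncaph2, its kleisin, was at 115 FPKM (Peyer's patch) and 20.0 FPKM (thymic), a difference of 2.47 and the only one of the 3 past 4-fold. Ncapd3 was at 27.8 and 9.08 FPKM and Ncapg2 at 14.3 and 8.03. In condensin I, which meets the chromosomes after the nuclear envelope breaks down, the subunits were mixed. Ncapd2 was at 187 and 91.7 FPKM and Ncapg at 29.2 and 21.4, whereas its kleisin Ncaph was at 31.1 and 94.4, a difference of -1.57. The kleisin of condensin II thus stood at 3.71 times that of condensin I in the Peyer's patch lymphoma, and that of condensin I at 4.73 times that of condensin II in the thymic lymphoma. Opposite-strand exons of Sco2 and Tymp cover 19.8% of the exon bases of Ncaph2, and 8.24% of its 50-base words also occur in transcripts of other genes, mostly Gm7535.

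The SMC subunits shared by both condensins were even. Smc4 was at 502 and 543 FPKM, the highest of the condensin and cohesin genes in both tumours, and Smc2, with which it pairs, at 54.7 and 57.9. Smc4 stood at 9.19 and 9.38 times the level of Smc2, so this imbalance was alike in both. Of the cohesin ring, Smc1a was at 255.5 and 96.0 FPKM, a difference of 1.40, and Smc3 at 119 and 77.0, a difference of 0.63. Smc5 (26.1 and 20.3 FPKM) and Smc6 (54.4 and 37.4), partners in a complex of DNA repair, were within 2-fold.

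Of the 11 mitotic kinesins 5 were above 0. Kif18a, which damps the swings of chromosomes at the spindle equator, was at 6.29 FPKM (Peyer's patch) and 39.2 FPKM (thymic), a difference of -2.46. Kif2c, which encodes MCAK, a kinesin that takes microtubules apart at centromeres, was at 26.4 and 112 FPKM, a difference of -2.04. Its relative Kif2a was at 17.0 and 47.8 FPKM, and the chromosome-bound motor Kif4 at 9.50 and 33.7, both lower in the Peyer's patch lymphoma by less than 4-fold. The calls for Kif18a and Kif2c were lost with equal totals (-1.64 and -1.43), where the added 1 also weighed more. They were lost as well with the authors' standard scores (-1.83 and -1.67), and with 5 FPKM added the differences were -1.97 and -1.89.

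Other mitotic kinesins leaned the other way or were even. Kif11, the motor that pushes the spindle poles apart, was at 53.2 and 27.6 FPKM, and Kif15, which can stand in for it, at 22.4 and 26.0. Kif20b was at 21.6 and 5.15 FPKM, a difference of 1.88 and a ratio of 4.19 without the added 1, and Kif22, a chromosome-bound motor, at 11.9 and 6.76. The cytokinesis motors Kif23 (21.6 and 15.0 FPKM) and Kif20a (25.5 and 22.3) were within 2-fold. Kif14, also of cytokinesis, was low in both at 2.45 and 7.07 FPKM.

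Kinesins that work mainly outside mitosis, in transport or cilia, were 5 above and 5 below 0, with 0 past 4-fold on the log2(FPKM + 1) scale. Kif5b, the conventional transport kinesin, was the most even at 87.7 and 85.4 FPKM. Kif3a and Kif3b encode the motor pair of kinesin-2, and went in opposite directions. Kif3a was at 3.28 FPKM (Peyer's patch) and 13.2 FPKM (thymic), and Kif3b at 4.97 and 0.874, the only member value under 1 FPKM. Their ratio without the added 1 was past 4-fold in each case, at 4.03 and 5.69. Kif1c was at 45.2 and 13.8 FPKM and Kif21b, known to act on microtubules at the T cell synapse, at 37.3 and 22.7. Kif24, a centriole kinesin, was at 32.9 and 94.8 FPKM, Kif1b at 24.8 and 48.4, and Kif7, of Hedgehog signalling, at 1.79 and 8.01, a ratio of 4.47 without the added 1. Kif13b (5.37 and 1.92 FPKM) and Kif16b (2.86 and 5.17) were low in both.

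The alpha and beta tubulins, with 8 of 10 within 2-fold, were the most even role. Tubb5 was the highest of all members in the Peyer's patch lymphoma, at 838 FPKM, and stood at 465 in the thymic lymphoma. Tuba1b was at 274 and 279 FPKM, Tuba1a at 231 and 167, and Tuba1c at 236 and 156. These copies are close in sequence. Of the 50-base words of the longest Tuba1b transcript 73.8% also occur in transcripts of other genes, and for Tuba1a the share was 72.9%, Tuba1c 61.0%, Tubb4b 50.9%, Tubb2a 49.6% and Tubb2b 39.3%. How the authors' quantification divided such fragments is not given, so single values of these 6 genes are uncertain. Tubb4b was at 57.6 and 56.5 FPKM and Tubb2b at 22.4 and 22.8, whereas Tubb2a was at 36.4 and 60.8. Tubb4a and Tubb3, tubulins best known from neurons, went opposite ways, Tubb4a at 29.9 and 8.34 FPKM and Tubb3 at 20.1 and 49.0. Tuba4a was at 56.9 and 37.5 FPKM.

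The gamma-tubulin complex held the widest difference of all members. Tubgcp6, which encodes GCP6 of the gamma-tubulin ring, was at 80.2 FPKM (Peyer's patch) and 2.66 FPKM (thymic), a ratio of 30.2 and a difference of 4.47. Tubg1, gamma-tubulin itself, was at 99.7 and 48.0 FPKM, a difference of 1.04. The core subunits that pair with gamma-tubulin were Tubgcp2 (6.17 and 23.4 FPKM, a difference of -1.77) and Tubgcp3 (37.8 and 28.1). Tubgcp4 was at 21.3 and 29.5 FPKM and Tubgcp5 at 5.74 and 2.49. Tubgcp6 stood at 14.0 times the level of Tubgcp5 in the Peyer's patch lymphoma and was level with it in the thymic lymphoma, at 1.07. Opposite-strand exons of Selenoo cover 8.71% of the exon bases of Tubgcp6.

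**Figure D5:**
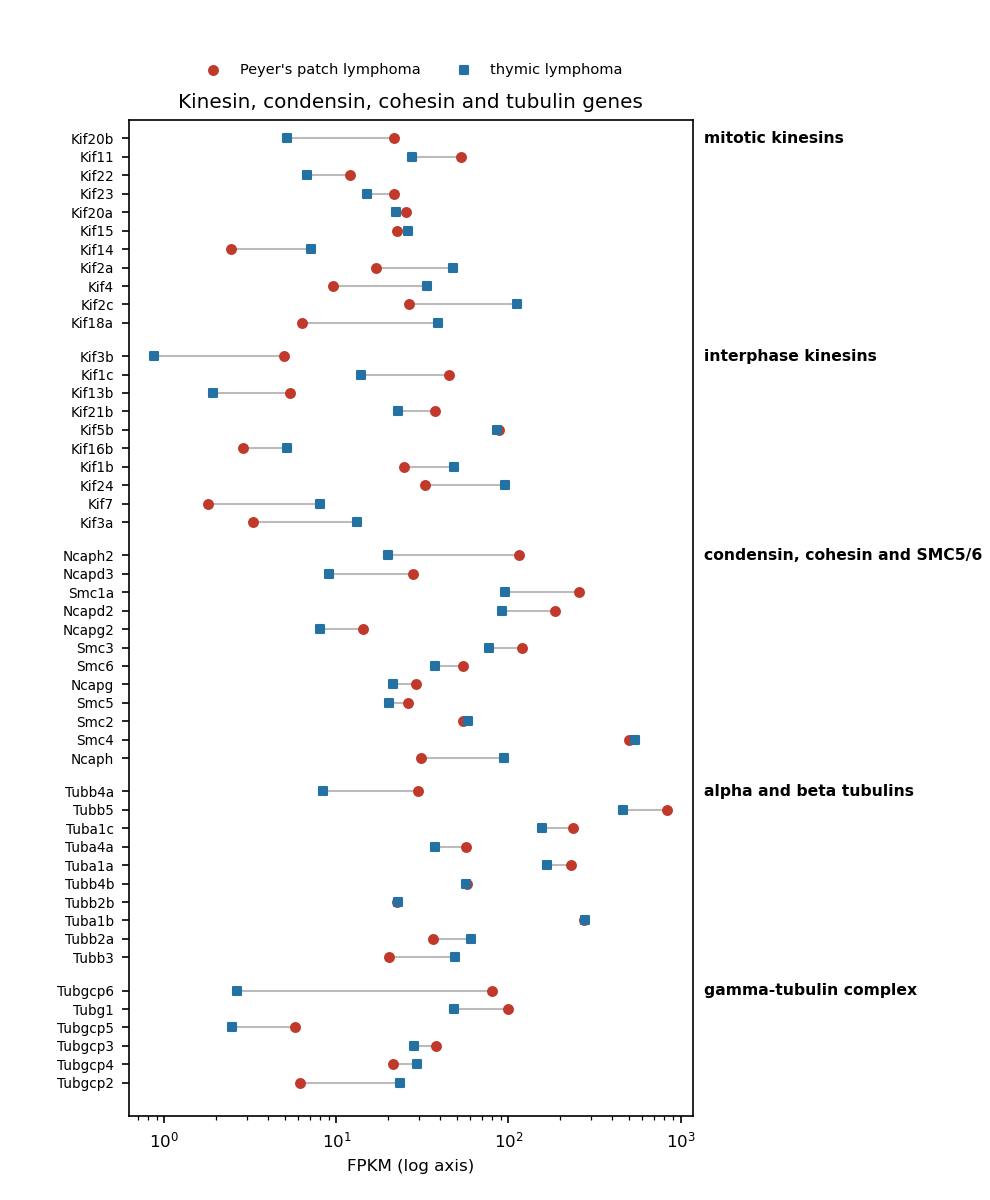
FPKM on a log axis for the 49 members among kinesins, condensin, cohesin and tubulins, with red circles for the Peyer's patch lymphoma, blue squares for the thymic lymphoma and a grey line joining the values of a gene. Tubgcp6 has the longest line (80.2 and 2.66), and Tuba1b (274 and 279) and Kif5b (87.7 and 85.4) have almost none.

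The choice by symbol also took 3 genes that were placed in none of the roles above. Cenpj, which encodes a protein of centriole growth and not of the centromere, was at 20.0 and 2.35 FPKM, a difference of 2.65, or 1.77 with 5 FPKM added. Aurkaip1, known also as part of the mitochondrial ribosome, was at 50.2 and 21.2 FPKM, and Cenpv at 313 and 284.

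Mitosis genes outside the symbol choice were set beside the members. Of 206 listed genes 166 were measured, with a median difference of 0.26, and 25 (15.1%) were at least 4-fold apart, against 19.9% of all genes. By list the counts were 5 of 20 kinetochore genes, 6 of 23 cyclins and entry kinases, and 4 of 16 anaphase and APC/C genes. These shares lay above that of all genes. Lower shares than that of all genes were found in spindle assembly (8 of 42), cohesin, condensin and loading (1 of 18) and cytokinesis (1 of 19). Tubulin folding and turnover had 0 of 20, and the chromosomal passenger and centromere list 0 of 9. Of the 25 genes apart, 6 (3.61%) were toward the Peyer's patch lymphoma and 19 (11.4%) toward the thymic lymphoma, where the shares over all genes were 7.84% and 12.0%. The 6 were the entry phosphatase Cdc25b (139 and 17.2 FPKM), Ccnf (41.2 and 5.95), Rcc1, which makes the RAN gradient around chromosomes (236 and 33.0), Mis12, Stra13 and Ppp2r5d. Among the 19 were securin, Pttg1, an APC/C substrate (17.0 and 84.0 FPKM), the checkpoint kinase Ttk (3.31 and 20.5), the microtubule end-binding protein Mapre1 (41.2 and 225) and Dlgap5 (37.7 and 180). Subunits of the MIS12 complex, to which NDC80 binds, were called in opposite directions, with Mis12 at 86.7 and 17.9 FPKM but Dsn1 at 47.4 and 254 and Nsl1 at 13.5 and 125. The fourth subunit, Pmf1, was at 17.9 and 29.3, a difference of -0.68 and not called. Wapal, which releases cohesin, was at 96.3 and 2913 FPKM, a thymic value well above that of every member. Cdk1, the kinase that drives mitosis, was at 240 and 69.8 FPKM, a difference of 1.77 and not called, while its partner Ccnb1, cyclin B1, was called the other way at 10.4 and 66.1. The medians of the 8 lists ran from -0.02 for kinetochore genes outside the symbol choice to 0.72 for the chromosomal passenger and centromere genes, of which 7 of 9 were above 0 and 0 past 4-fold. Between these lay anaphase and APC/C genes at 0.04, cyclins and entry kinases at 0.15 and spindle assembly genes at 0.21.

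The tumours also differed in genes of proliferation, mostly outside mitosis, and of other cells. Of 13 such proliferation genes 9 were above 0, with a median of 0.74, among them Mki67 (123 and 44.8 FPKM). Mki67 and Ccna2 also stood in the lists of other mitosis genes. Only Tyms (17.3 and 225 FPKM) was past 4-fold, toward the thymic lymphoma (7.69%, against 12.0% of all genes). T cell markers, all 13 measured, summed to 4337 and 2583 FPKM, with 10 above 0 and Cd3e, Cd8a and Cd8b1 below. Both lymphomas thus expressed T cell genes. The 4 measured erythroid genes of 8 listed, mostly Hbb-bs, summed to 2425 and 96390 FPKM, the 5 MHC class II genes of 6 to 336 and 1874, the 3 B cell genes of 7, mostly Igkc, to 1593 and 10110, and the 4 myeloid genes of 6 to 287 and 843. The sums of these 4 lists were higher in the thymic lymphoma, though Cd72 (122 and 53.5 FPKM) and H2-Ob (49.1 and 17.7) went the other way. Their part in the differences of the mitosis genes was not tested. The 2 fibroblast and endothelium genes of 5 summed to 173 and 165 FPKM but went opposite ways. Fn1 had a difference of -2.33, past 4-fold toward the thymic lymphoma, and Pecam1 had one of 0.96. Epcam, of epithelium, was at 65.1 and 59.6 FPKM.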

How the data were processed

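Per the labels' protocols, poly(A)-selected stranded libraries were made from total RNA of lysed tumour tissue. The reads were processed with GATK, Picard, TopHat and Cufflinks on build mm9, per the submitters' processing notes, which name no versions. The annotation and the gene filter are not given in these sources. The authors deposited, per the file headers, an FPKM and a standard score for each gene and library. The FPKM values were read as log2(FPKM + 1), since no source states the scale, and the deposited score is a straight line of the log2 value within a library. Cufflinks values hold no read counts, so depth and counting error are unknown.

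Genes were kept where either library reached 1 FPKM (8245 of 8249). With 1 library per group no test was run, so a difference of at least 2 on the log2(FPKM + 1) scale was called. It was applied to the whole table. Values were computed with Python 3.11.15 and pandas 2.3.3. Simulated data with planted changes and little noise checked only the arithmetic of the calls, and not the spread between real libraries. Promoters came from RefSeq (GRCm38.p6). Shared 50-base words and exon overlaps came from GENCODE M21, without coordinates, since mm9 differs. The members, lists, roles and thresholds were chosen with earlier results of these data known. All members could be named, and of the other mitosis genes those at least 4-fold apart and up to 3 per list with the highest mean level. Pmf1 and Itgb3bp were named after their values were seen. The alternatives tried were 2 other pseudocounts, 2 other filters, 3 scalings, the authors' scores, 2 other thresholds, the mean and smaller sets of members.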

Additional observations from a re-analysis of the deposited data

How the results depend on the processing

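No paired analysis was possible because each tumour is 1 library with no shared replicate number. The count of members at least 4-fold apart was 10, of which 7 were higher in the Peyer's patch lymphoma and 3 in the thymic lymphoma. With the authors' standard scores it was 16 (15 and 1), where 2 on the rescaled scores is not exactly 4-fold. The count was 5 (4 and 1) with a pseudocount of 5. It was 49 (29 and 20) at 2-fold and 3 (2 and 1) at 8-fold. With libraries brought to the same total it was 8, with 1 toward the thymic lymphoma. That setting added 1 after both libraries were scaled down, so all its results mix scaling with a larger pseudocount. Beside these counts, the share over all genes, in either direction, was 12.9% with a pseudocount of 5, 22.3% with the scores, 50.2% at 2-fold, 7.07% at 8-fold and 16.1% with equal totals. The other mitosis genes apart numbered 15 with equal totals, 74 at 2-fold and 3 at 8-fold, against 25. The median of all genes moved from 0.05 to 0.50 with equal totals and 0.48 with the scores. Relative to that median, the members' median (0.38) stayed between 0.35 and 0.41 under the 4 scalings. A median relative to all genes was counted as moved at 0.25. The gamma-tubulin complex moved from 0.63 to 0.35 with equal totals and the interphase kinesins from -0.37 to -0.74 with a filter at 5 FPKM. With the mean in place of the median, the interphase kinesins were at -0.0496, inner kinetochore 0.63, spindle checkpoint 1.44, kinases -0.0774 and APC/C -0.40. Of 80 recomputed differences of the 10 called members, 70 stayed past 4-fold, 10 did not and 0 reversed. The 2 other filters could not change a difference, and the smaller pseudocount could only widen one. Their part of the 70 was therefore fixed in advance. A change of pseudocount or filter also cannot reverse a sign. With a pseudocount of 5 the 5 that did not were Kif2c, Kif18a, Aurka, Cenpj and Cenpu. Leaving out the 8 members that share over 10% of their words with other genes, chosen after seeing the data, left the count at 10. All 8 were within 4-fold, so the count could not change and says nothing about shared sequence. The cause of these shifts was not tested. Unknown depth limits values under a few FPKM most, among them the thymic values of Cenpo, Cenpu, Aurka and Tubgcp6.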
